A study of Mus musculus with 6 samples.

Results

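The AP-1 and BATF transcription factors examined here are 10 genes, given by their symbols and matched to the gene identifiers of the deposited table, namely Jun, Junb, Jund, Fos, Fosb, Fosl1, Fosl2, Batf, Batf3 and Atf3. All 10 were found among the 26128 genes listed, and all 10 were among the 14671 genes that passed the filter on low counts. Bulk RNA sequencing had been done on mouse DNT cells, which are T cells with CD3 on their surface but without CD4, CD8 or NK1.1. They had been converted in culture from wild type CD4+ T cells of adult C57BL/6 mice, from spleen per the labels, beside mature dendritic cells of the DBA/2 strain and IL-2, and were then sorted. All cells were restimulated with anti-CD3/CD28 beads for 48 h, in 3 control libraries without IL-33 and in 3 libraries with IL-33 at 50 ng/ml. DNT cells made in this way are a converted population, and the labels leave unsaid whether replicate libraries stem from different animals or cultures, so that p-values measure only the spread between these libraries, which may be technical. The comparison asks how the RNA of these factors differed between DNT cells restimulated with IL-33 and those restimulated with beads alone.

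AP-1 is a dimer of basic leucine zipper proteins, usually a JUN protein with a FOS protein, that T cells build after their antigen receptor or a cytokine receptor has signalled through the MAP kinases. Fos, Fosb, Jun and Junb are classic immediate early genes, which are transcribed within minutes of a stimulus and whose RNA decays quickly, whereas Jund is usually transcribed at a steady rate. BATF and BATF3 have the leucine zipper but no transactivation domain, pair with JUN proteins, and bind DNA together with IRF4 or IRF8, while ATF3 is a stress-induced relative that acts mostly as a repressor. IL-33 signals through the receptor ST2 to NF-κB and to the MAP kinases.

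The libraries held 20256342 to 22336050 counts each, so that 3 counts, taken as the limit of detection, corresponded to 0.134 to 0.148 CPM, the count of a gene scaled to the total of its library. Mitochondrial genes took 1.86 to 1.95% of the counts in the control libraries and 2.09 to 2.12% in the IL-33 libraries. The 10 T cell markers were all present, with a summed level of 2590 to 2780 CPM in controls and 2680 to 2780 CPM with IL-33. Of the genes absent by the sort, Cd4 was low, at 0.934 CPM in controls and 0.373 CPM with IL-33, but RNA of Cd8a was abundant, at 545 and 400 CPM, and Klrb1c, which encodes NK1.1, stood at 33.5 and 25.6 CPM. Cd8b1, at 9.68 and 16.3 CPM, was the only one of these 4 genes to rise (edgeR adjusted p = 6.2e-08), and the other 3 fell.

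Junb was the most abundant of the 10 genes. Set per length of exon, so that genes can be compared, its level averaged 151 ± 21.1 CPM per kb (SD over all 6 libraries), followed by Batf with 65.3 ± 3.0, Jun with 55.5 ± 4.13 and Fosl2 with 23.0 ± 1.02 CPM per kb. The ranges of these 4 genes over the 6 libraries did not meet. The other 6 genes were far lower, from Fos with 3.05 ± 0.898 and Jund with 2.93 ± 0.467 CPM per kb, through Atf3 with 1.92 ± 0.293 and Batf3 with 1.62 ± 0.884, to Fosl1 with 1.27 ± 0.227 and Fosb with 0.397 ± 0.188 CPM per kb. Neighbours in the order from Fos to Fosl1 had overlapping ranges. The range of Fosb lay below that of Fosl1 and met the lower end of that of Batf3. Among these 6 genes the order of the means differed between the groups. In controls it ran from Jund (2.62) through Fos (2.28), Atf3 (2.04), Fosl1 (1.17) and Batf3 (0.945) to Fosb (0.234 CPM per kb), and with IL-33 from Fos (3.82) through Jund (3.24), Batf3 (2.31), Atf3 (1.8) and Fosl1 (1.37) to Fosb (0.56 CPM per kb). Exons of Jund and Fosl1 share 877 and 1163 bases with genes on the other strand, so that the places of these 2 genes are uncertain. After 48 h with beads, DNT cells thus held far more RNA of Junb, Batf, Jun and Fosl2 than of Fos or Fosb, and the same order over all 6 libraries was found with the length of the longest transcript, apart from Atf3 and Batf3, which changed places.

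With IL-33, RNA of 6 of the 10 genes rose at an adjusted p under 0.05 (Junb, Fos, Fosb, Fosl2, Batf and Batf3), RNA of 1 fell (Jun), and 3 did not pass (Jund, Fosl1 and Atf3), by the quasi-likelihood test of edgeR, with p adjusted after Benjamini and Hochberg across the whole table. Among all genes tested, 27.5% passed the same threshold, 13.6% higher with IL-33 and 13.9% lower. Fos, Fosb and Batf3 also rose by more than the fold of 1.5 set by the study, and none of the 10 fell by it, where 2.47% of all genes tested passed both thresholds upward and 2.39% downward. In 6 of the 10 genes every IL-33 library lay to the same side of every control library, 5 above and 1 below, against 38.9% of all genes tested in either direction. The median log2 fold change of the 10 genes was 0.27, beside -0.0006 for all genes tested, and the median of its absolute size was 0.27 beside 0.15. These are values of bulk RNA, in which a change in the number of cells that express a gene and a change in RNA per cell cannot be told apart.

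**Figure D1:**
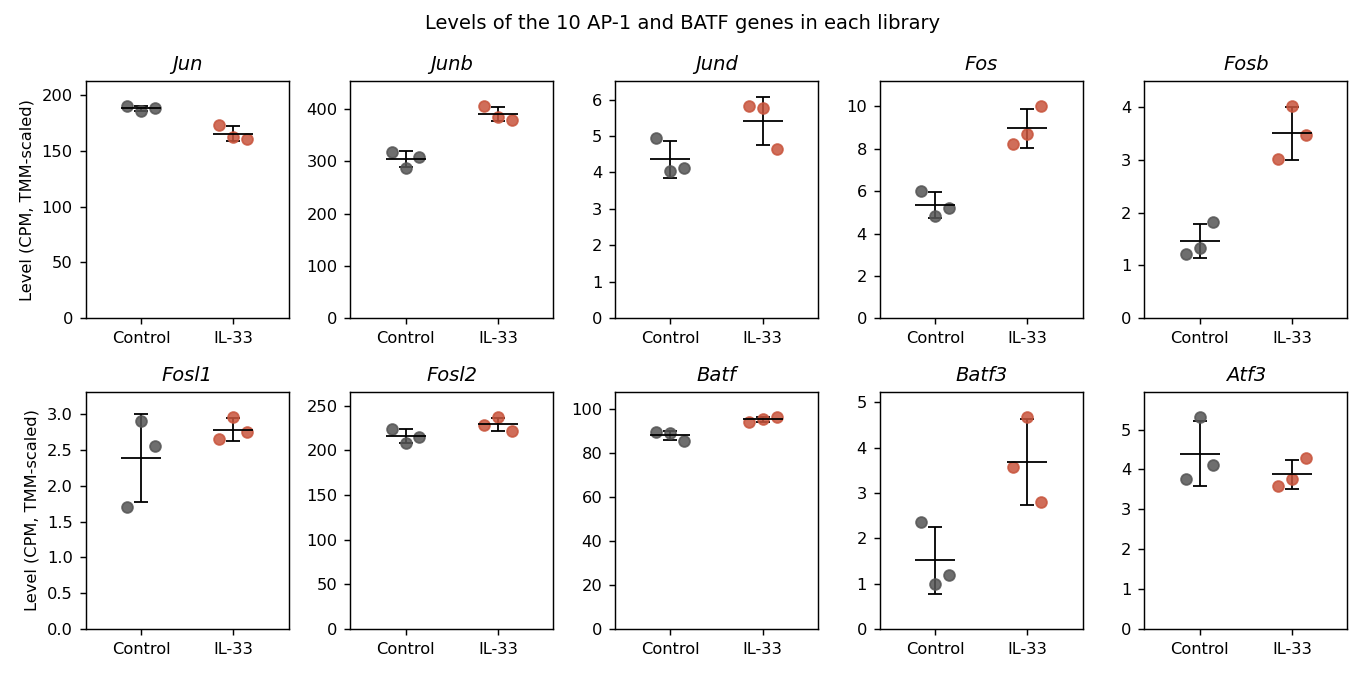
Level of each of the 10 genes in CPM (vertical axes, each from 0) in the 3 control and 3 IL-33 libraries; points are libraries, lines the mean and SD of each group. The groups stand apart for Junb, Fos, Fosb, Batf and Batf3, which were higher with IL-33, and for Jun, which was lower, and they overlap for Jund, Fosl1, Fosl2 and Atf3.

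Among the JUN genes, which supply the partner for FOS and BATF proteins, Junb rose and Jun fell. Junb (ENSMUSG00000052837, chr8:84974484-84978718, minus strand, GRCm38) was read at 318, 287 and 309 CPM in the control libraries and at 405, 385 and 380 CPM in the IL-33 libraries. All 3 IL-33 libraries lay above all 3 controls. The mean rose from 304 ± 15.5 to 390 ± 13.2 CPM (SD, n = 3), a fold of 1.28 and a log2 fold change of 0.36 with a 95% interval of 0.29 to 0.42 (edgeR adjusted p = 3.4e-16). JUNB often counters JUN and is needed for several helper T cell programs. Exons of Junb share 173 bases with those of Prdx2 on the other strand, a peroxiredoxin gene that itself rose from 44.8 to 59.8 CPM (edgeR adjusted p = 3.4e-10). Whether the counting took account of strand is not stated, so that reads from the shared bases cannot be assigned. Their part in the rise of Junb was not tested.

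Jun (ENSMUSG00000052684, chr4:95049034-95052222, minus strand) was read at 190, 186 and 189 CPM in controls and at 173, 163 and 161 CPM with IL-33. The controls lay close together and all above the IL-33 libraries. The mean fell from 188 ± 1.87 to 166 ± 6.76 CPM, a log2 fold change of -0.19 with a 95% interval of -0.26 to -0.11 (edgeR adjusted p = 1.5e-05). Jun, which encodes c-Jun, the strongest activator of its family, was the only one of the 10 genes to fall past the test. Its exons share 232 bases with the antisense gene Junos, read at 6.86 CPM in controls and 7.5 CPM with IL-33 (edgeR adjusted p = 0.548).

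Jund (ENSMUSG00000071076, chr8:70698949-70700616, plus strand), which often restrains growth, was read at 4.95, 4.03 and 4.11 CPM in controls and at 5.81, 5.77 and 4.64 CPM with IL-33. The groups overlapped, since the lowest IL-33 library lay under the highest control. Its log2 fold change was 0.31 with a 95% interval of -0.03 to 0.64 (edgeR adjusted p = 0.173). Of the 1668 exon bases of Jund, 877 also belong to an antisense gene, Gm11175, which is not among the genes listed and so has no values. The level of Jund and its share among the JUN genes are therefore uncertain.

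Together the 3 JUN genes gave 200, 186 and 196 CPM per kb in controls and 234, 222 and 218 CPM per kb with IL-33, a rise of 0.21 on the log2 scale. The groups did not overlap, and the exact permutation test gave p = 0.1, two-sided, the smallest that 3 libraries against 3 allow. The share of Jun in this sum was 29.7, 31.4 and 30.2% in controls and 23.2, 23.0 and 23.1% with IL-33, a difference of -7.35 percentage points. Junb took 68.2 ± 0.833% in controls and 75.5 ± 0.184% with IL-33, 7.25 percentage points more. Jund made up 1.35 ± 0.117% and 1.44 ± 0.15%. The JUN pool thus held more Junb for each Jun in every IL-33 library than in any control (exact permutation p = 0.1 for either share), and a share within a library does not depend on how libraries are scaled to each other.

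Of the FOS genes, Fos and Fosb, the immediate early members with a full transactivation domain, rose, both from low levels. Fos (ENSMUSG00000021250, chr12:85473890-85477273, plus strand) gave 128, 98 and 114 counts in controls, or 6.03, 4.82 and 5.2 CPM, and 177, 182 and 223 counts with IL-33, or 8.23, 8.68 and 10 CPM. Every IL-33 library lay above every control. The mean rose from 5.35 ± 0.618 to 8.98 ± 0.94 CPM, a fold of 1.68 and a log2 fold change of 0.75 with a 95% interval of 0.46 to 1.03 (edgeR adjusted p = 1.1e-05). Fosb (ENSMUSG00000003545, chr7:19302696-19310051, minus strand) gave 26, 27 and 40 counts in controls, or 1.22, 1.33 and 1.83 CPM, and 65, 84 and 77 counts with IL-33, or 3.02, 4.01 and 3.47 CPM. The lowest IL-33 library of Fosb stood well above the highest control. Its mean rose from 1.46 ± 0.321 to 3.5 ± 0.493 CPM, a fold of 2.38 and a log2 fold change of 1.25 with a 95% interval of 0.77 to 1.73 (edgeR adjusted p = 1.3e-05).

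Fosl2, which encodes FRA2, a FOS relative without the transactivation domain that lasts longer after a stimulus, dominated the family. Fosl2 (ENSMUSG00000029135, chr5:32135801-32157842, plus strand) was read at 224, 208 and 215 CPM in controls and at 228, 237 and 222 CPM with IL-33. The groups overlapped. Its rise, from 216 ± 7.54 to 229 ± 7.4 CPM with a log2 fold change of 0.09 and a 95% interval of 0.02 to 0.15, only just passed the test (edgeR adjusted p = 0.0492) and was lost in 7 of 12 alternative fits, with an adjusted p of up to 0.266. It did not pass without control library 2 or 3, without IL-33 library 1 or 2 (adjusted p = 0.266, 0.114, 0.0879 and 0.261), with DESeq2 (0.102), with no filter (0.0824) or with the replicate number as a block (0.0707). Fosl1 (ENSMUSG00000024912, chr19:5447547-5455946, plus strand), which encodes FRA1, was read at 1.7, 2.9 and 2.56 CPM in controls and at 2.65, 2.96 and 2.75 CPM with IL-33. The groups overlapped, with 1 control far below the rest, and the log2 fold change was 0.22 with a 95% interval of -0.23 to 0.68 (edgeR adjusted p = 0.521). Exons of Fosl1 share 1163 bases with Ccdc85b on the other strand, read at 12.3 and 13.4 CPM, so that values of Fosl1 are uncertain.

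The 4 FOS genes summed to 26.7, 25.2 and 25.9 CPM per kb in controls and to 28.8, 30.2 and 29.1 CPM per kb with IL-33, 0.18 higher on the log2 scale, with no overlap (exact permutation p = 0.1). Fosl2 took 85.8 ± 0.634% of this sum in controls and 80.4 ± 1.49% with IL-33, a difference of -5.37 percentage points. Fos went from 8.75 ± 0.767% to 13.0 ± 1.44% and Fosb from 0.902 ± 0.202% to 1.9 ± 0.222%, each with no overlap between the groups (exact permutation p = 0.1). Fosl1 made up 4.54 ± 1.29% and 4.66 ± 0.147%. In both groups most FOS RNA was therefore that of Fosl2, with a larger portion of Fos and Fosb in the IL-33 libraries.

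**Figure D2:**
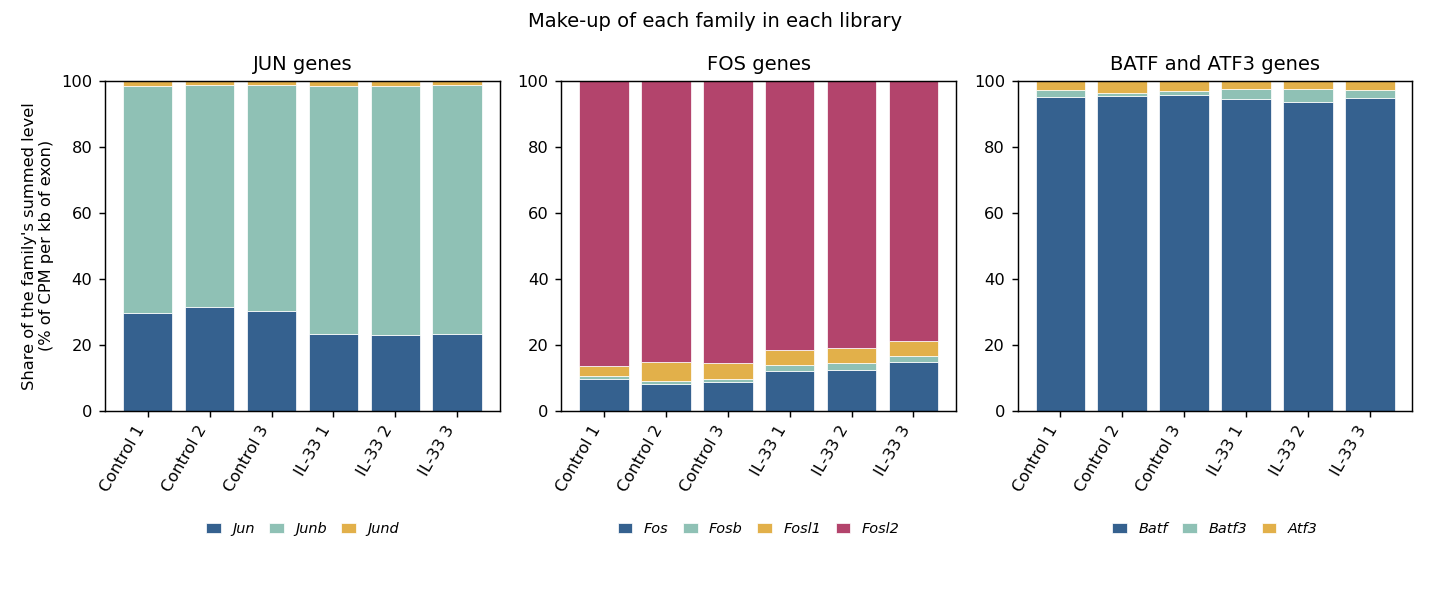
Share of each gene in the summed level of its family (vertical axis, % of CPM per kb of exon) in each of the 6 libraries (horizontal axis), for the JUN, the FOS and the BATF and ATF3 genes. Jun took 29.7 to 31.4% of the JUN sum in controls and 23.0 to 23.2% with IL-33, and Fosl2 took 85.4 to 86.5% and 78.8 to 81.7% of the FOS sum.

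Of the genes that pair with JUN proteins and IRF factors, Batf3 rose from a low level and Batf, an abundant gene, by little. Batf3 (ENSMUSG00000026630, chr1:191097847-191108945, plus strand) gave 50, 20 and 26 counts in controls, or 2.36, 0.984 and 1.19 CPM, and 77, 98 and 62 counts with IL-33, or 3.58, 4.67 and 2.79 CPM. All IL-33 libraries lay above all controls, although control library 1 came near the lowest of them. The mean rose from 1.51 ± 0.74 to 3.68 ± 0.946 CPM, a fold of 2.43 and a log2 fold change of 1.28 with a 95% interval of 0.77 to 1.78 (edgeR adjusted p = 4e-05). This was the largest fold change among the 10 genes, close to that of Fosb, and it ran from 1.05 without control library 2 to 1.75 without control library 1. T cells need Batf (ENSMUSG00000034266, chr12:85686669-85709087, plus strand) for helper cell programs. Batf was read at 89.6, 89.4 and 85.8 CPM in controls and at 94.2, 95.6 and 96.5 CPM with IL-33. The groups did not overlap. The rise from 88.3 ± 2.13 to 95.5 ± 1.13 CPM had a log2 fold change of 0.11 with a 95% interval of 0.03 to 0.2 (edgeR adjusted p = 0.032) and was lost in 5 of 12 alternative fits, namely without control library 3, IL-33 library 2 or IL-33 library 3 (adjusted p = 0.169, 0.0608 and 0.0931), with DESeq2 (0.0869) and with no filter (0.0604).

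Batf3 is known above all as a factor of cross-presenting dendritic cells, and dendritic cells had been in the conversion culture before the sort. Of 12 markers of dendritic and myeloid cells, 10 were listed in the table, and their sum was 71.3 to 74.4 CPM in controls and 46.0 to 52.2 CPM with IL-33. Most of this sum was Itgax, which encodes CD11c and is also found on activated T cells, at 54.6 and 26.0 CPM, and which fell (edgeR adjusted p = 4.3e-28). Itgam, which encodes CD11b, rose from 2.61 to 4.83 CPM (edgeR adjusted p = 0.00013). Clec9a and Cd209a have no row in the table, where each listed gene has at least 1 count. Flt3 and Siglech had at most 3 counts in any library. Zbtb46 stood at 2.89 and 2.98 CPM, Xcr1 at 11.5 and 12.4 CPM and Cd14 at 0.988 and 1.6 CPM (edgeR adjusted p = 0.912, 0.521 and 0.12), and the group means of Csf1r, Adgre1 and Lyz2 lay between 0.0318 and 0.305 CPM. The part of such cells in the rise of Batf3 was not tested. B cell markers summed to 5.89 to 7.18 CPM in controls and 6.18 to 7.34 CPM with IL-33, and mast cell and basophil markers to 16.3 to 22.7 and 12.2 to 14.9 CPM.

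Atf3 (ENSMUSG00000026628, chr1:191170296-191218039, minus strand), the stress-induced member, was read at 3.77, 5.31 and 4.11 CPM in controls and at 3.58, 3.77 and 4.28 CPM with IL-33. The groups overlapped, and the log2 fold change was -0.18 with a 95% interval of -0.54 to 0.18 (edgeR adjusted p = 0.516). Batf3 and Atf3 lie 61.4 kb apart on chromosome 1, on opposite strands, and the groups were thus apart for the first and overlapped for the second. Fos and Batf lie 209 kb apart on chromosome 12, with Jdp2, a further relative, between them at 42.9 CPM in controls and 39.0 CPM with IL-33 (edgeR adjusted p = 0.0856).

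The 3 genes Batf, Batf3 and Atf3 summed to 67.0, 66.7 and 63.7 CPM per kb in controls and to 70.9, 72.7 and 72.4 CPM per kb with IL-33, 0.13 higher on the log2 scale, with no overlap (exact permutation p = 0.1). Batf alone took 95.5 ± 0.338% and 94.3 ± 0.659% of this sum. Batf3 went from 1.43 ± 0.679% to 3.2 ± 0.807%, again with no overlap (exact permutation p = 0.1), and Atf3 stood at 3.1 ± 0.552% and 2.5 ± 0.215% (exact permutation p = 0.2).

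**Figure D3:**
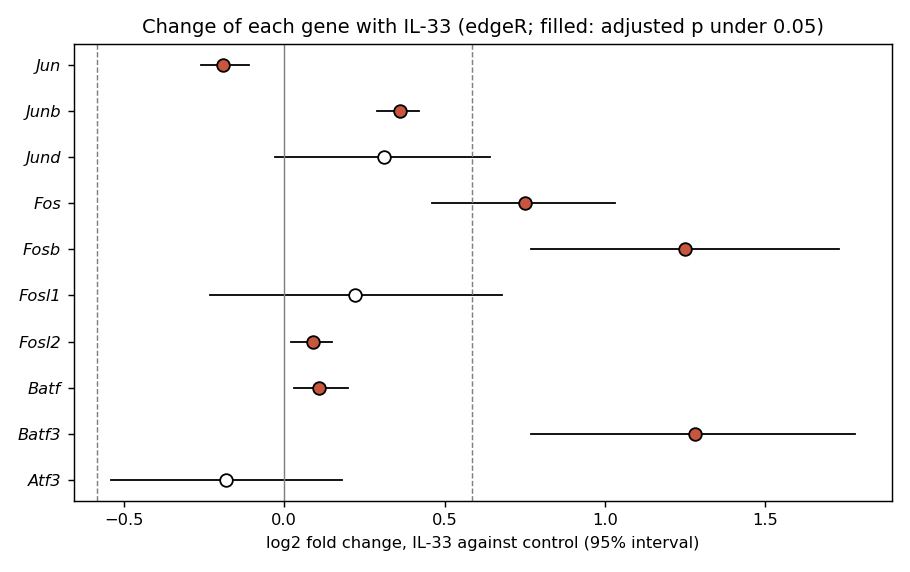
Log2 fold change of each of the 10 genes, IL-33 against control (horizontal axis), with its 95% interval from edgeR; filled points passed an adjusted p of 0.05, dashed lines mark a fold of 1.5 in either direction. Fosb and Batf3, at 1.25 and 1.28, have intervals wholly beyond a fold of 1.5, the interval of Fos, 0.46 to 1.03, reaches across it, and Jun alone lies below 0 with a filled point.

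Precision followed depth. The 4 abundant genes, read with 1817 to 8711 counts in a library, had standard errors of 0.032 to 0.042 on the log2 scale, so that changes as small as those of Batf and Fosl2 came near the threshold. The 6 genes of low level, with 20 to 223 counts, had standard errors of 0.14 to 0.25. For Jund and Fosl1 the intervals included 0 and reached beyond a fold of 1.5, so that a rise of that fold is within what this depth allows and is not shown to be absent. The interval of Atf3 stayed within a fold of 1.5 in either direction.

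With each library left out in turn, Fos stayed between 0.66 and 0.84 on the log2 scale, Fosb between 1.14 and 1.45, Junb between 0.32 and 0.39 and Jun between -0.22 and -0.16. These 4 genes and Batf3 kept an adjusted p under 0.05 in each of 12 alternative fits, the highest being 0.00216, for Batf3 without IL-33 library 2. The 3 genes that did not pass, Jund, Fosl1 and Atf3, passed in none of the 12 fits.

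**Figure D4:**
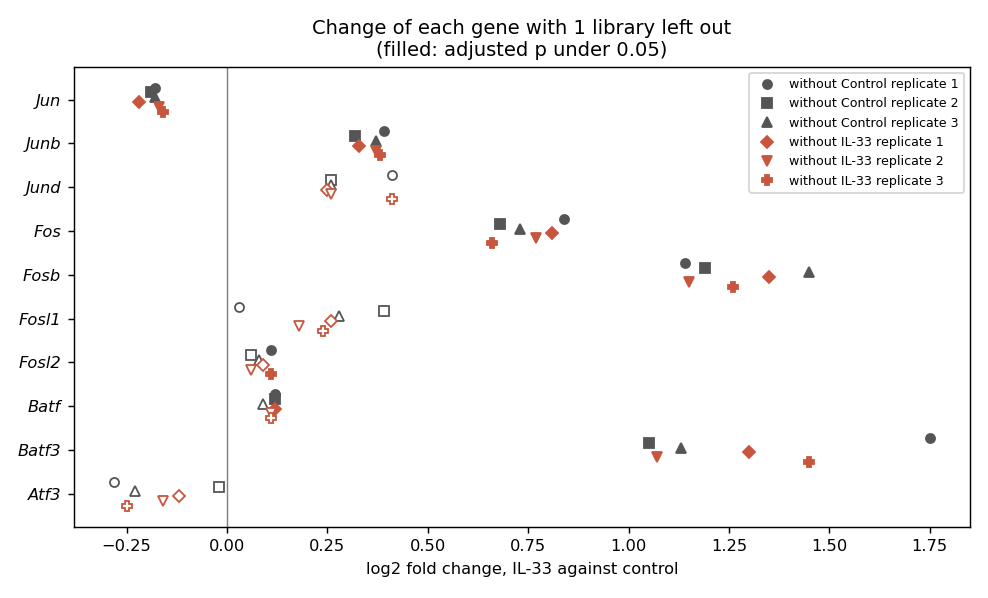
Log2 fold change of each of the 10 genes, IL-33 against control (horizontal axis), with 1 of the 6 libraries left out; each symbol stands for the library left out, and filled symbols passed an adjusted p of 0.05. Every value stays on its side of 0, Batf3 spreads most, from 1.05 to 1.75, and Fosl2 and Batf lose the threshold with some libraries left out.

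Promoter sequence was matched for 9 of the 10 genes, all but Fosl1, in RefSeq (GRCm38.p6), over a window from 250 bases before to 50 bases after each RefSeq start, and was searched on both strands for sites of factors that are known to act on this family. An AP-1 site, TGANTCA, was in 0 of the 9 windows and in 7.81% of all 32851 promoter windows. The cAMP response element, TGACGTCA, was in 0 of 9 and in 1.79% of all. The CArG box, the core of the serum response element, was in 0 of 9 and in 1.63% of all. Sites more than 250 bases before the start were outside the search, for Fos as for the others. Within the window, variants of a site that depart from the letters searched were not counted. A count of 0 therefore does not show that a gene lacks the site. The AP-1-like letters TGACATCA, through which Jun is known to be bound by its own product with ATF2, were in the window of Jun and in 3.62% of all windows. The kappaB motif was in the windows of Fos, Fosb and Fosl2 and in 8.46% of all, and a STAT motif, TTCNNNGAA, was in the window of Batf3 and in 8.3% of all. The sites are shown for Jun, which fell, for Fos, Fosb and Batf3, which rose most, and for Fosl2, which rose least, each on the strand of its gene with the motif letters in capitals; the capitals may spell the motif on the strand shown or on the other. For Fosl2 and Batf3, and only just for Fosb, the RefSeq start lies inside the gene as GENCODE draws it. Fosl2 has a further kappaB match, 181 bases before the start, which overlaps the one shown and is not printed.
Jun, AP-1-like site, 45 bases before the start, chr4:95052249-95052278, minus strand: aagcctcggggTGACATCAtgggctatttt
Fos, kappaB motif, 214 bases before the start, chr12:85473666-85473695, plus strand: ggaaggtctaGGAGACCCCCtaagatccca
Fosb, kappaB motif, 188 bases before the start, chr7:19310214-19310243, minus strand: acgcagccttGGGGACCCCCgagaccccca
Fosl2, kappaB motif, 182 bases before the start, chr5:32136280-32136309, plus strand: agatcggggaGGGAGTCCCCcagagctgcc
Batf3, STAT motif, 239 bases before the start, chr1:191098164-191098193, plus strand: tgccacgtgacTTCCACGAAgagcgggggc
The kappaB motif was thus found both in genes that rose by more than a fold of 1.5 and in Fosl2, whose rise was lost in most alternative fits. A match is a description of the letters in this window, and binding was not measured.

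The kinases that carry signals to AP-1 were examined as a list of 24 genes, of which 23 were tested. RNA of 6 rose and that of 4 fell, beside 13.6% and 13.9% of all genes tested, and none passed the fold of 1.5, with a median log2 fold change of 0.02. Among those that rose were the ERK pathway genes Mapk3, from 83.8 ± 1.25 to 97.9 ± 2.84 CPM, and Map2k1, from 124 ± 3.77 to 151 ± 2.96 CPM (edgeR adjusted p = 7e-06 and 8.6e-10), and among those that fell was Map3k8, which encodes TPL2, from 84.1 ± 2.69 to 69.8 ± 1.6 CPM (edgeR adjusted p = 2.6e-07). Of 10 genes for factors at FOS and JUN promoters and for the turnover of their proteins, 9 were tested, 4 rose and 1 fell (13.6% and 13.9% over all genes), none by the fold of 1.5, with a median of 0.09. Srf, the factor of the serum response element of Fos, was read at 52.0 ± 0.194 and 52.6 ± 2.21 CPM (edgeR adjusted p = 0.873). The genes of its cofactors differed in direction. Elk4 fell from 85.8 ± 1.23 to 71.3 ± 2.68 CPM (edgeR adjusted p = 2.9e-07). Elk3 rose from 98.2 ± 4.49 to 106 ± 2.99 CPM (edgeR adjusted p = 0.0383). Elk1 did not pass, at 30.3 ± 1.32 and 32.3 ± 0.834 CPM (edgeR adjusted p = 0.346). The genes named from these lists were chosen after their values were seen.

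Factors that bind DNA beside AP-1 or BATF formed a list of 8 genes, all tested, of which 1 rose and 4 fell (again beside 13.6% and 13.9%), none by the fold of 1.5, with a median of -0.09. Irf4 and Irf8, the partners of BATF and BATF3, were read at 53.3 ± 0.87 and 51.5 ± 3.53 CPM and at 654 ± 8.44 and 676 ± 15.3 CPM (edgeR adjusted p = 0.562 and 0.17). Nfatc1, a partner of FOS and JUN, fell from 199 ± 2.29 to 165 ± 7.39 CPM (edgeR adjusted p = 5.8e-10). Runx3, a factor of cytotoxic T cells, rose from 229 ± 8.5 to 306 ± 6.55 CPM and Runx1 fell from 96.7 ± 2.75 to 72.5 ± 3.03 CPM (edgeR adjusted p = 9.7e-21 and 2.8e-14). These genes, too, were named after their values were seen.

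Of 13 genes known to be driven by NFAT with AP-1 in T cells, 11 were tested, 6 rose and 2 fell, beside 13.6% and 13.9% of all genes tested, with a median log2 fold change of 0.33. Those past both thresholds were the cytokine genes Il5, from 11.1 ± 1.22 to 28.3 ± 1.82 CPM, Il13, from 72.2 ± 2.17 to 143 ± 7.54 CPM, and Ifng, from 42.7 ± 4.03 to 83.2 ± 2.5 CPM, which rose by 1.35, 0.99 and 0.96 on the log2 scale, and Tnf, which fell from 18.0 ± 2.02 to 11.5 ± 1.28 CPM (edgeR adjusted p = 2.9e-24, 3.2e-39, 4.1e-29 and 2e-07). The list thus moved in both directions. Of 15 genes known to be bound by BATF with IRF4 in T cells, 14 were tested, 5 rose and 3 fell, beside the same background, with a median of 0.21. Ctla4, an inhibitory receptor gene, rose from 104 ± 4.36 to 171 ± 2.6 CPM, while Il1rl1, which encodes the IL-33 receptor ST2, fell from 16.0 ± 2.25 to 9.73 ± 0.387 CPM and Maf, a basic leucine zipper factor, from 118 ± 6.89 to 75.1 ± 4.61 CPM (edgeR adjusted p = 1.6e-31, 9e-08 and 2.2e-22). Both lists were chosen with earlier results of these data known, so that their counts are a description. Whether AP-1 or BATF was bound at these genes was not measured.

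Among 8839 tested genes with a mean of at least 10 CPM, those whose log2 CPM followed that of Batf3 most closely over the 6 libraries were Dync1li1 (Pearson r = 0.998), Ralgds (0.994), Cdkn1b (0.991), Seh1l (0.987) and Ip6k1 (0.987). Their log2 fold changes were 0.1 to 0.21, against 1.28 for Batf3, and 3 of the 5 passed the test, but not Ralgds and Seh1l (edgeR adjusted p = 0.0636 and 0.0889). These correlations rest on 6 points that include the difference between the groups, were the highest of many, and are given as a description.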

How the data were processed

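RNA of sorted DNT cells from C57BL/6 mice, restimulated with anti-CD3/CD28 beads for 48 h, was sequenced in 3 libraries without and 3 with IL-33 (50 ng/ml), grouped by their titles. The table deposited by the authors holds unnormalized read counts, 1 column a library. The submitters' processing notes name Bowtie 0.12.2 and the build mm8 with no role. The counting program, its annotation and its strand setting are not stated in these sources. The labels name a TruSeq kit and the methods of the study an NEBNext Ultra kit. A column of mean counts over libraries was not used.

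Of the 26128 genes listed, 26072 matched a symbol. Positions, exon lengths and overlaps are from GENCODE M21 (GRCm38). Counts were filtered with filterByExpr (minimum count 10, minimum total 15), which left 14671 genes and removed 0.11% of counts, scaled by TMM, and compared with edgeR 4.0.16 in R 4.3.3 (robust quasi-likelihood fit, two-sided, no covariates, Benjamini-Hochberg over all genes tested). The thresholds, an adjusted p under 0.05 and a log2 fold change of at least 0.585, are those of the study. Errors are SD over 3 libraries. Sums over a family are of CPM per kb of exon, with exact permutation tests, and correlations used log2(CPM + 0.5). The fit was tested on simulated data. Replicates differed by more than counting noise (chi-square per gene of 2.64 to 3.67), so that none was counted as a repeat.

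Alternatives were DESeq2 1.42.0, limma-voom (limma 3.58.1), edgeR with DESeq2 size factors, no filter, a stricter filter (1 CPM throughout a group), a block for replicate number, leaving out each library, and other gene lengths. The members and gene lists were chosen with earlier results of these data known. Of the lists, genes past both thresholds and averaging 1 CPM or more were named, at most 8 a list, and the 5 genes most like the member that changed most. Where others are named, the text says so.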

Additional observations from a re-analysis of the deposited data

How the results depend on the processing

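All 10 genes kept their direction in each of 12 alternative fits. Of the 10, the number past the adjusted p ran from 5 to 7 and the number past both thresholds was 3 in every fit, while over all genes tested the first ran from 3031 (DESeq2) to 4089, against 4036, and the second from 501 (DESeq2) to 724, against 714. Fosl2 and Batf lost the threshold in 7 and 5 of the fits. With the replicate block the number past the adjusted p was 6 of the 10 genes and 3798 of all. Deviations of same-numbered libraries correlated at 0.0088, -0.00486 and 0.01165 over all genes tested, so that no effect shared by such libraries was seen. Whether they share a culture or an animal is not stated and cannot be read from these values. With the longest transcript as length, the share of Jun differed by -6.52 and that of Junb by 6.46 percentage points. The summed log2 differences ran from 0.181 to 0.236 for the JUN, 0.158 to 0.199 for the FOS and 0.108 to 0.144 for the BATF and ATF3 genes. In the list of BATF and IRF4 genes, 5 in place of 3 passed both thresholds without control library 3, and in the MAP kinase list 1 in place of 0 without IL-33 library 2. With 3 libraries a group, exact tests cannot go below 0.1. Reads shared with genes on the other strand limit the values of Junb, Jun, Jund and Fosl1.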

Other observations

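Basic leucine zipper factors outside the 10 genes moved in both directions. Of 22 such genes, 20 were tested, 5 rose and 5 fell at an adjusted p under 0.05, beside 13.6% and 13.9% of all genes tested, and the median log2 fold change was -0.02. Past both thresholds were Nfe2l2, which encodes NRF2, the factor of the oxidative stress response, and Maf, which promotes IL-10 and type 2 cytokine genes in T cells. Nfe2l2 fell from 28.8 ± 2.91 to 16.3 ± 1.7 CPM, a log2 fold change of -0.82, and Maf from 118 ± 6.89 to 75.1 ± 4.61 CPM, a log2 fold change of -0.65 (edgeR adjusted p = 6.3e-14 and 2.2e-22). Named after their values were seen, Bach1 and Bach2, which compete with NRF2 and with AP-1 for DNA, fell from 69.9 ± 0.275 to 56.0 ± 2.95 CPM and from 17.1 ± 0.0701 to 14.3 ± 0.399 CPM, while Crem rose from 84.2 ± 4.08 to 108 ± 6.1 CPM and Atf4 from 398 ± 6.99 to 448 ± 2.79 CPM (edgeR adjusted p = 8.3e-08, 0.0321, 2e-11 and 4.8e-07).

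Genes next to the 10 were looked at after the data had been seen. Of 65 other genes tested within 100 kb of them, 7 were higher and 10 lower at an adjusted p under 0.05, and the median log2 fold change was -0.06. These counts are near the 13.6% and 13.9% of all genes tested. Near Fosb, Ppp1r13l rose from 3.02 to 6.15 CPM and Ppm1n from 0.223 to 0.866 CPM (edgeR adjusted p = 2.4e-06 and 0.00619). Near Jund, Ifi30 fell from 1.04 to 0.291 CPM and Mpv17l2 from 11.4 to 3.16 CPM (edgeR adjusted p = 0.00295 and 0.0445). These 4 were past both thresholds, which 2.47% of all genes tested passed upward and 2.39% downward. Nsl1, 11.4 kb from Batf3, fell from 20.3 to 14.0 CPM (edgeR adjusted p = 3e-06), where Batf3 rose.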
